A study of Mus musculus with 8 samples.

Results

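Peaks of Ezh2 and G9a were examined at 4 loci of mouse embryonic stem cells, those of Pou4f1, Pou4f2, Pou4f3 and Skor2. The members were all peaks of 5 deposited lists that overlapped a fixed mm9 window around each gene, of 130 kb for Pou4f1, 80 kb for Pou4f2 and 70 kb for Pou4f3 and for Skor2. They numbered 127 of 174428 peaks: 25 of wild-type Ezh2 library 0, 31 of wild-type Ezh2 library 1, 17 of knockout Ezh2, 25 of wild-type G9a and 29 of rescue G9a. Pou4f2, Pou4f3 and Skor2 were chosen by the scores of their Ezh2 and G9a peaks in wild-type cells, which ranked high among regions with both proteins, so the wild-type scores and the joint presence of Ezh2 and G9a there describe the choice and are no finding. Among 424 Ezh2 regions with a wild-type G9a peak, ordered by the mean rank of their scores within the lists, the Pou4f2 region came 3rd, Skor2 4th and Pou4f3 5th. Just outside, the region in place 6, on chromosome 11 from 92958235 to 92963324, had a G9a score of 137.14, against 160.23 at Pou4f3. That score was above the 135.55 of Skor2, and the region's library 0 score of 982.64 was above the 872.82 of Pou4f3. Pou4f1 did not meet its label in full: its Ezh2 regions held no wild-type G9a peak.

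The study set Ezh2 and G9a ChIP-seq in TT2 cells, an embryonic stem cell line from a C57BL/6 female and a CBA male grown with serum and LIF, beside cells of the same line without G9a and GLP. Ezh2 was profiled in 2 wild-type libraries, numbered 0 and 1, and in 1 library of G9a-/- GLP-/- cells, called the knockout here. For G9a there was 1 library of wild-type cells and 1 of G9a-/- GLP-/- cells given back wild-type G9a. The latter is called the rescue, and by its label it still lacked GLP. In the titles the knockout Ezh2 library is also numbered 0, and both G9a libraries are numbered 1. The labels name no clone, promoter or construct, and nothing in them ties libraries 0 and 1 to separate cultures. All cells were fixed with 1% formaldehyde for 10 min, and for G9a a protein crosslinker (DSG, 2 mM, 45 min) was applied first.

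Polycomb repressive complex 2 (PRC2) methylates histone H3 at lysine 27 through its enzyme, Ezh2. In embryonic stem cells PRC2 sits over CpG-rich promoters of developmental regulators that are silent until differentiation. G9a works as a dimer with the related GLP, and together they methylate histone H3 at lysine 9. The POU4 (Brn3) proteins are transcription factors of neurons and sensory cells. Pou4f1 (Brn3a) acts in somatosensory ganglia and other neurons, Pou4f2 (Brn3b) in retinal ganglion cells and Pou4f3 (Brn3c) in inner ear hair cells. Skor2 (Corl2) is a transcriptional corepressor of the Ski family, needed in Purkinje cells of the cerebellum.

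Promoter sequences are shown for the CpG content of the genes that name the windows, since PRC2 domains are known for lying over CpG-rich starts. RefSeq promoters (250 bases before to 50 after the start, build GRCm38.p6) were at hand for 2 of the 4 genes, Pou4f1 (minus strand, chr14:104467950-104468249) and Pou4f2 (minus strand, chr8:78436598-78436897). They are printed 5′ to 3′ with each CpG, the dinucleotide CG, in capitals, and were not placed on the mm9 peaks.
Pou4f1: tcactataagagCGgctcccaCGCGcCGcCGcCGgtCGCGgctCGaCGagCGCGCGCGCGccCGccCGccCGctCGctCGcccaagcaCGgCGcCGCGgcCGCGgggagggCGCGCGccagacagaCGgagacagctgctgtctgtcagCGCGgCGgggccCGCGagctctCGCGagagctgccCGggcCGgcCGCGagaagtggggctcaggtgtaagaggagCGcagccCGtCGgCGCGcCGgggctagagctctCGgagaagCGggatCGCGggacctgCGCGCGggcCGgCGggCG
Pou4f2: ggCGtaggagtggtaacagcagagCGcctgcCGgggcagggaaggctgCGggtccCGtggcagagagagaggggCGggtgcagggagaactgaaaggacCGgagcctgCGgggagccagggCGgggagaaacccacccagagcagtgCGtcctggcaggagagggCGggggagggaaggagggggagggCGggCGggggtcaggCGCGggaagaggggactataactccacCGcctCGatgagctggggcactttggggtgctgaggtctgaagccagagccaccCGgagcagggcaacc
The Pou4f1 promoter holds 57 CpGs in its 300 bases, and 0.152% of the 32851 promoters of that length hold as many. The Pou4f2 promoter holds 18, a number reached by 29.7% of promoters, against a median of 7 over all of them. At least 1 CpG, which reads the same on both strands, is found in 94.6% of promoters. The GC content was 78.3% for Pou4f1 and 69.7% for Pou4f2, with a median of 52.7% over all promoters.

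The lists bound what can be read from them. They hold 5425, 11766 and 6198 peaks for Ezh2 libraries 0 and 1 and the knockout, and 67318 and 83721 for wild-type and rescue G9a. Each peak has the authors' own MACS score, 10 times the negative log10 of its p, used here to describe and rank peaks within a list. The lowest scores were 43.02, 30, 43.03, 20 and 20 in that order. In library 1 the highest score was 3233.06, and 322 peaks share a score of 3100 from rank 17 on. That list does not order those 322 peaks. Reads per peak are not in the lists and the depth is therefore unknown. Library 1 covers 15.0 Mb against 4.03 Mb for library 0 and 3.38 Mb for the knockout. With 1 library of each kind other than wild-type Ezh2 there was no test between conditions, and each knockout value is given beside those of libraries 0 and 1. An uncalled site is not an empty one.

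**Figure D1:**
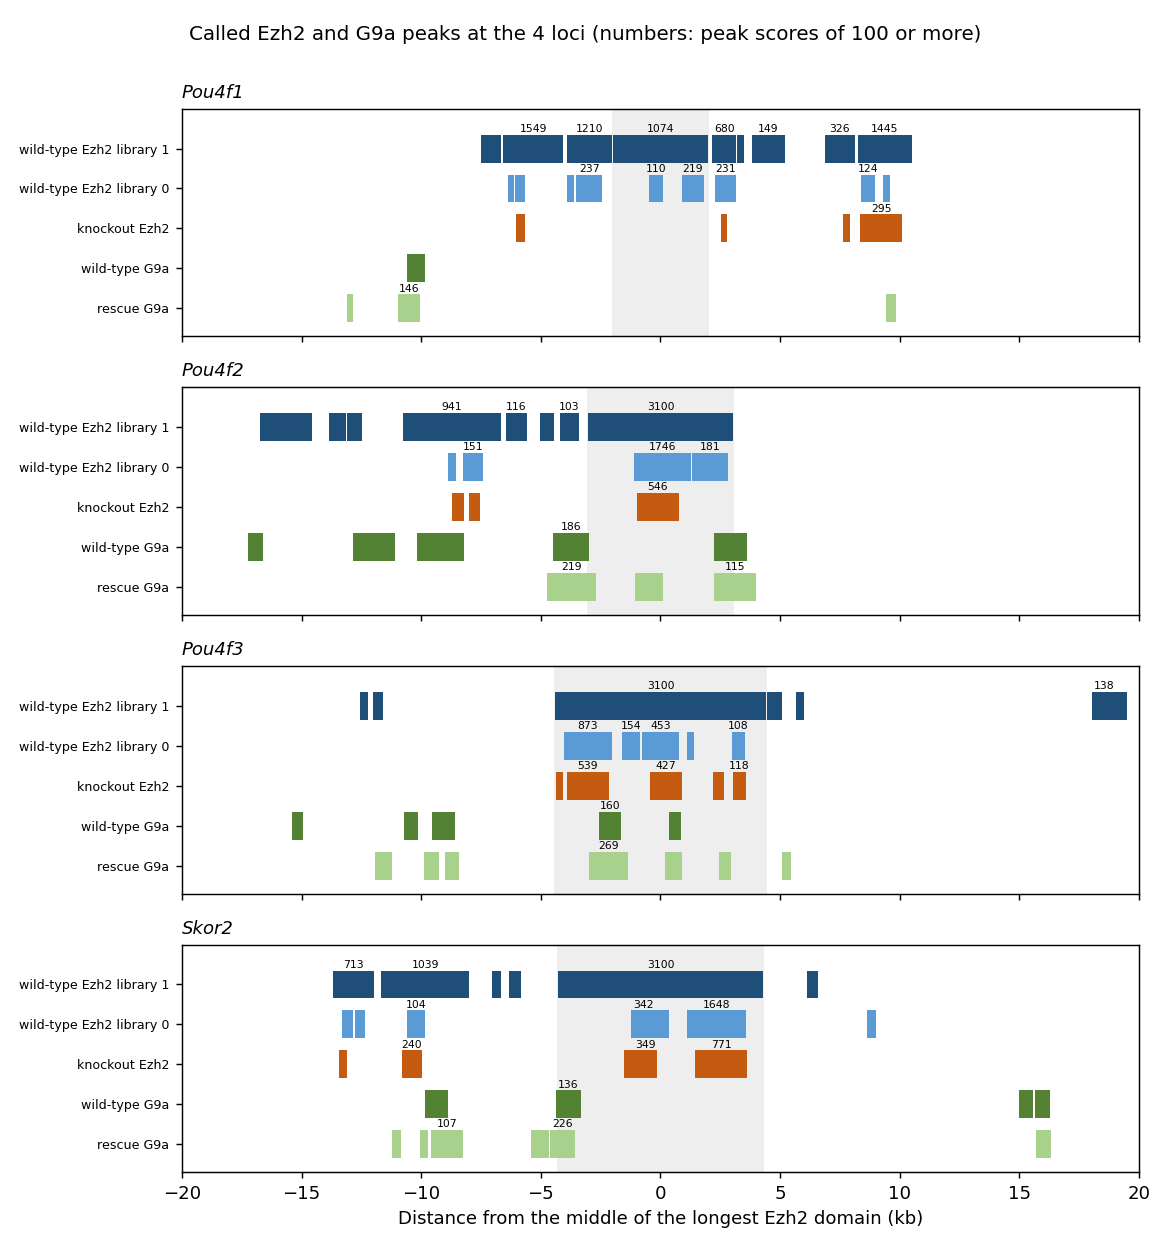
Peaks of the 5 lists (rows) at each locus, drawn to scale against the distance in kb from the middle of the longest Ezh2 domain (grey band); numbers are peak scores of 100 or more. Wild-type G9a peaks cross both edges of the band at Pou4f2, and the highest one of Pou4f3 lies inside it. At Skor2 a peak crosses the lower edge of the band, and at Pou4f1 the peaks stay outside it. Further wild-type G9a peaks lie outside the band at Pou4f2, Pou4f3 and Skor2. Windows reach beyond the plotted 20 kb on each side.

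Overlapping peaks of the 3 Ezh2 lists were joined into regions, and the longest region of a window that held both wild-type libraries is called its domain. The domains of Pou4f3, Skor2 and Pou4f2 were 8837, 8571 and 6067 bp long, ranking 120, 132 and 265 by length among 2642 regions of both wild-type libraries, whose median was 2295 bp. The Pou4f1 domain was 3984 bp long and part of a broken chain. In all, 3 of the 4 domains held a knockout peak, against 62.6% of the 2642 regions, and the exception was Pou4f1. With Ezh2 peaks up to 1 kb apart merged, the Pou4f1 domain grew to 12681 bp and held 630 bp of knockout peaks against 4392 bp of library 0. The 3 domains that held a knockout peak were all in the top 10% by library 0 score, where 99.6% of regions did. The Pou4f1 domain, with a library 0 score of 219.21, was in the 4th of 10 groups by that score, where 81.4% did. Pou4f3 and Skor2 were also in the widest 10%, where 98.9% held a knockout peak, and Pou4f2 was just outside it by length.

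At Pou4f2 the Ezh2 that remained called in the knockout was the central block of the domain. The domain, on chromosome 8 from 80956315 to 80962381, was a single library 1 peak with a score of 3100. Library 0 had a peak from 80958257 to 80960617 with a score of 1745.72 and a second from 80960669 to 80962175 with a score of 181.24. The knockout had 1 peak there, from 80958347 to 80960103, with a score of 545.61, the highest Ezh2 score of the window in that list. This peak lay whole within the stronger library 0 peak, and no knockout peak was called over the weaker one. Peaks covered 6067 bp of the domain in library 1, 3868 bp in library 0 and, in the knockout, 1757 bp. The knockout thus covered 0.454 of the library 0 length, below the median ratio of 0.791 among the top 10% of regions by library 0 score and of 0.796 among all regions with a knockout peak. Library 0 covered 0.638 of the library 1 length. The knockout thus lay further from library 0 than library 0 from library 1 as a ratio, but not in bp. Because the library 1 peak set the edges of the domain, this comparison is no measure of the spread between libraries.

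A second Ezh2 block lay below this domain, from 80948568 to 80952696, and there knockout and library 0 were close in length. Library 0 covered 1177 bp of it and the knockout 993 bp, in 2 peaks each. The highest score was 941.31 in library 1, 151.21 in library 0 and 92.81 in the knockout. The other 6 Ezh2 regions of the Pou4f2 window were called in library 1 alone.

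In the Pou4f2 domain wild-type G9a stood at the edges and not over the strongest library 0 peak or the knockout peak. The highest wild-type G9a peak of the window, from 80954864 to 80956344 with a score of 186.21, reached 30 bp into the domain and lay over a weaker library 1 Ezh2 peak from 80955151 to 80955946. It was 1912 bp from the nearest library 0 peak and 2002 bp from the nearest knockout peak. At the other edge a weaker G9a peak, from 80961567 to 80962959 with a score of 29.96, crossed the upper edge and lay 1463 bp from the knockout peak. It had 815 bp inside the domain and shared 609 bp with the weaker library 0 peak. Another, from 80949186 to 80951149 with a score of 74.41, lay within the second Ezh2 block and overlapped both library 0 and knockout peaks. The rescue list held the 2 edge peaks, with scores of 219.19 and 114.92, and lacked the one in the second block. It also had a weak peak inside the domain, from 80958280 to 80959436 with a score of 22.75, of whose 1157 bp the knockout Ezh2 peak shared 1090 bp. The rescue list is thin on the whole of chromosome 8, with 1354 peaks against 5186 in the wild type, a ratio of 0.261 against 1.24 over all chromosomes. Outside the domain it had a single peak, from 80991448 to 80991848 with a score of 20.95. In the window it had 4 peaks against 9, and the part of the chromosome-wide difference in this was not tested. On chromosomes 14 and 18, which hold the other loci, the ratio of rescue to wild-type peaks was 1.53 and 1.39. The part of this in the rescue peaks of those loci was not tested either.

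At Pou4f3 knockout peaks lay over most of the length that library 0 peaks covered and over 50.1% of the domain. The domain, on chromosome 18 from 42553444 to 42562280, was again a single library 1 peak with a score of 3100, and held 5 peaks of library 0 and 5 of the knockout. The strongest library 0 peak, from 42553839 to 42555816, had a score of 872.82. The strongest knockout peak lay over it, from 42553939 to 42555707, with a score of 538.73. The next pair also met, at 42557097 to 42558634 in library 0 (score 452.56) and 42557434 to 42558755 in the knockout (score 427.10). Between these pairs library 0 had a peak from 42556255 to 42557003 with a score of 153.96 where the knockout had none. Another library 0 peak without a knockout peak ran from 42558964 to 42559284, with a score of 49.66. In turn, knockout peaks from 42553516 to 42553793 (score 43.55) and from 42560038 to 42560519 (score 66.12) had no library 0 peak. Library 1 peaks covered 8837 bp, library 0 peaks 5104 bp and knockout peaks 4428 bp, a ratio of knockout to library 0 of 0.868. Of the library 0 length, 68.1% was also under a knockout peak.

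Pou4f3 was the locus where G9a lay well inside the domain. The higher wild-type G9a peak, from 42555296 to 42556202 with a score of 160.23, had its midpoint at 0.261 of the domain, counted from 0 at the lower to 1 at the upper edge. It sat at the upper shoulder of the strongest Ezh2 peak, sharing 521 of its 907 bp with library 0 and 412 bp with the knockout. The library 0 peak with a score of 153.96, over which no knockout peak was called, began next to it. The lower G9a peak, from 42558205 to 42558740 with a score of 36.49, was at 0.569 of the domain and lay whole within a knockout Ezh2 peak. In the rescue both were called again, with scores of 268.76 and 32.79, and the rescue had another from 42560319 to 42560823 with a score of 30.20. The other 5 wild-type G9a peaks of the window were between 4178 and 28000 bp from the domain and had no Ezh2 peak over them. The highest of them, from 42547151 to 42547717, had a score of 70.10, and the highest rescue peak outside the domain, from 42548845 to 42549425, a score of 47.02. The highest library 1 peak outside the domain, from 42575920 to 42576929, had a score of 137.66.

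At Skor2 the knockout also kept most of the library 0 length, and G9a was at the far side of the domain from the strong Ezh2 peak. The domain ran on chromosome 18 from 77091518 to 77100088, with a score of 3100 in library 1. The strongest Ezh2 peaks were from 77096928 to 77099383 in library 0 (score 1647.73) and from 77097253 to 77099406 in the knockout (score 771.15). A second pair was called from 77094571 to 77095658 in library 0 (score 342.02) and from 77094666 to 77095661 in the knockout (score 349.06). Library 1 peaks covered 8571 bp, those of library 0 4017 bp and those of the knockout 3543 bp. The knockout to library 0 ratio was 0.882, and 79.9% of the library 0 length was under a knockout peak.

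The wild-type G9a peak at Skor2, from 77091440 to 77092465 with a score of 135.55, crossed the lower edge of the domain. It was 2105 bp from the nearest library 0 peak and 1799 bp from the nearest knockout peak, over a stretch that library 1 alone called. The rescue peak, from 77091189 to 77092226 with a score of 226.45, was at the same edge. A second G9a site lay in the Ezh2 region from 77084138 to 77087817, where the wild-type peak (score 62.25) was 137 bp from a knockout Ezh2 peak with a score of 240.06. In that region library 0 covered 761 bp with a score of 104.32, and the knockout 817 bp. Library 1 covered the region with a single peak with a score of 1038.57, and the highest rescue peak in it, from 77086199 to 77087541, had a score of 107.06. The knockout covered more than library 0 in 29.0% of all regions with a knockout peak.

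At Pou4f1 the knockout call pattern differed along the chain of Ezh2 peaks. Library 1 had 9 peaks between 104856127 and 104874112 on chromosome 14, and library 0 had 9 within the same span. The highest library 1 peak, from 104857051 to 104859562, had a score of 1548.96. The 3 highest scores of library 0 were 237.36, 230.88 and 219.21, at peaks from 104860098 to 104861181, from 104865894 to 104866777 and from 104864510 to 104865417. Over these 3 the knockout had a single peak of 269 bp with a score of 44.64, near the lowest score of its list. No knockout peak was called in 2 neighbouring regions from 104859700 to 104865608, which include the domain and of which library 0 covered 1374 and 1481 bp.

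The upper end of the Pou4f1 chain held the strongest knockout peak. It ran from 104871977 to 104873710 with a score of 295.04, over 2 library 0 peaks with scores of 124.37 and 48.48. In that region the knockout covered 1734 bp and library 0 885 bp, with 2225 bp in library 1. A further knockout peak of 314 bp (score 47.11) lay next to it where library 1 but not library 0 had a peak. Over the whole window library 1 peaks covered 15724 bp, library 0 peaks 5277 bp and knockout peaks 2678 bp, and 28.7% of the library 0 length was under a knockout peak, the lowest of the 4 loci.

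G9a at Pou4f1 lay outside the Ezh2 chain in the wild type. The nearest wild-type peak, from 104853021 to 104853755 with a score of 57.73, had no Ezh2 peak over it and was 3833 bp from the nearest knockout peak. The rescue had a peak over the same site with a score of 145.71, and its strongest peak of the window, with a score of 195.18, also overlapped a wild-type peak (score 48.56). Within the chain the rescue had 1 weak peak, from 104873028 to 104873468 with a score of 26.54, which lay whole under the strong knockout Ezh2 peak.

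**Figure D2:**
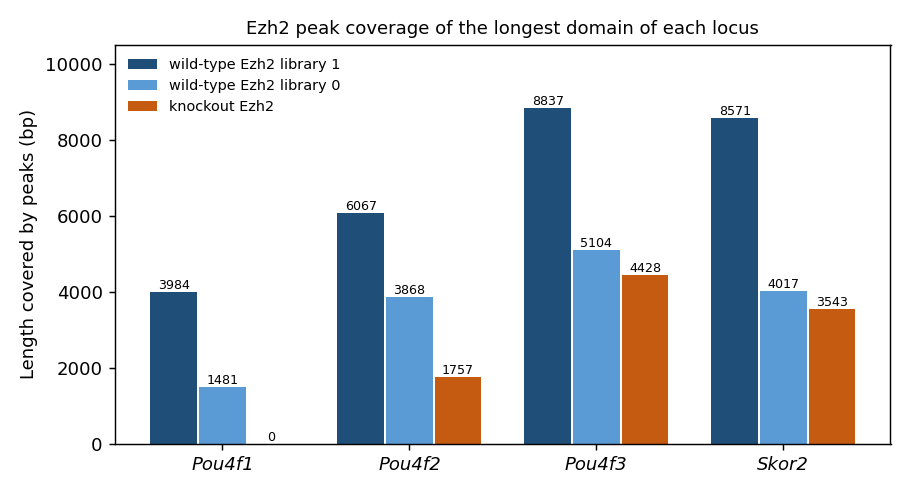
Length in bp of the longest Ezh2 domain of each locus that was covered by peaks of the wild-type libraries 1 and 0 and of the knockout, 1 library per bar. The knockout bars stand at 0, 1757, 4428 and 3543 bp from Pou4f1 to Skor2, and in each domain the knockout is the lowest of the 3.

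Over the 4 domains, knockout peaks covered a median of 35.1% of the domain, from 0% at Pou4f1 to 50.1% at Pou4f3. Library 0 covered a median of 52.3% and library 1 100%, because library 1 peaks set the edges. With domains drawn without library 1 the knockout median was 88.2% and that of library 0 was 99.5%. Those domains are other stretches, so the 88.2% is not to be set beside the 52.3%. Over all 2642 regions the medians were 20.0% for the knockout and 42.6% for library 0, and in the top 10% by library 0 score they were 50.1% and 65.0%. The knockout share was lower than that of library 0 at each of the 4 loci. Library 1 is at 100% by the way the domains were drawn, so the distance between libraries 0 and 1 is no free measure of the spread here. As ratios, knockout to library 0 was below library 0 to library 1 at Pou4f1 (0 and 0.372) and Pou4f2 (0.454 and 0.638), and above it at Pou4f3 (0.868 and 0.578) and Skor2 (0.882 and 0.469). At Pou4f2 the shares were 29.0% in the knockout against 63.8% and 100% in libraries 0 and 1. At Pou4f1 the shares were 0%, 37.2% and 100%.

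**Figure D3:**
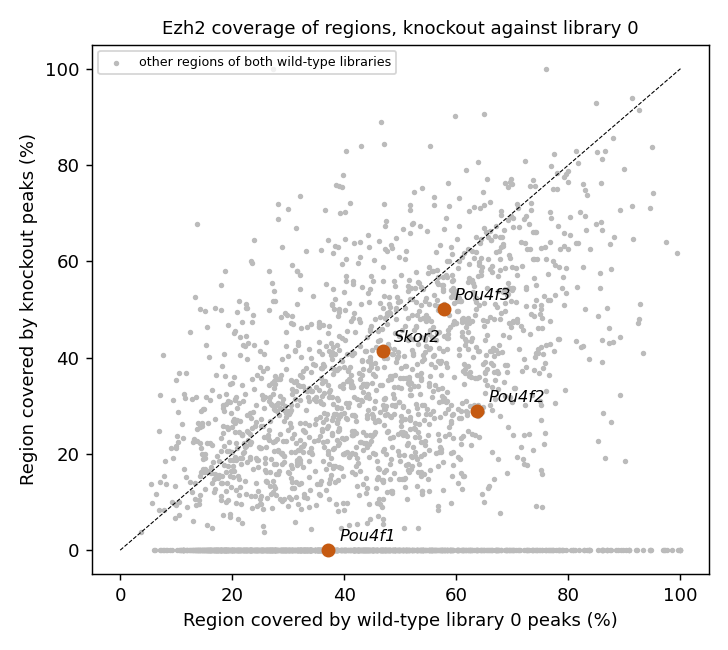
Share in percent of each of 2642 Ezh2 regions covered by knockout peaks (y) against library 0 peaks (x), 1 point per region, with the longest domain of each locus in orange and equal shares on the dashed line. Pou4f3 and Skor2 lie a little under the line at 50.1% and 41.3%, Pou4f2 far under it at 29.0%, and Pou4f1 on the row of regions without a knockout peak.

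No Ezh2 site was called in the knockout alone in the 4 windows. All 17 knockout peaks overlapped a library 1 peak, against 71.0% of knockout peaks over the genome, and 14 of them overlapped a library 0 peak, against 52.5%. The loci were chosen for strong wild-type Ezh2, so nothing is read from these contrasts. Of the library 0 peaks, 24 of 25 overlapped a library 1 peak, against 91.3% over the genome. In the other direction, 14 of the 25 library 0 peaks overlapped a knockout peak, against 51.1% over the genome. The genome share is not matched for score, so nothing is read from this either. Joined over the lists, 11 regions of the windows held both wild-type libraries, and 9 of these held a knockout peak, against 62.6% of the 2642 regions. The other 2 were the neighbouring Pou4f1 regions. Over all regions this share rose with the library 0 score, so the count is not read as a difference.

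The position of G9a was then set beside that in all Ezh2 regions of both wild-type libraries. A wild-type G9a peak lay in 3 of the 4 domains, which the choice of the loci used, against 16.0% of the 2642 regions. Without library 1, whose peaks reach furthest, the count was 1. Taking the highest G9a peak of a region, it crossed an edge of the region in 2 of the 3 domains, at Pou4f2 and Skor2, against 38.2% of 424 regions. The edge position at Pou4f2 rests on how the domain was drawn: with Ezh2 peaks up to 1 kb apart merged, the G9a midpoint was at 0.509 of the domain, and within the span of library 0 peaks it was at -0.677. At Skor2 it was at -0.544 of the library 0 span. It overlapped a library 0 peak in 1 of the 3, at Pou4f3, against 59.2%, and a rescue G9a peak in 3 of the 3, against 40.8%. Among the 274 regions that also held a knockout peak it overlapped that peak in 50.0%, and in 1 of the 3 domains, at Pou4f3. With 3 domains these counts describe the loci and are not read as different from the other regions.

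**Figure D4:**
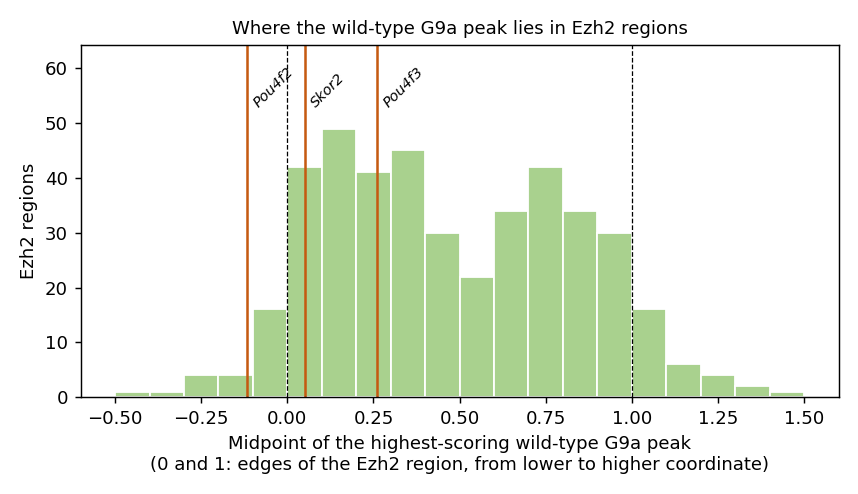
Position of the midpoint of the highest wild-type G9a peak in 424 Ezh2 regions of both wild-type libraries, as a count of regions per bin, where 0 and 1 (dashed) are the region's edges from lower to higher coordinate. The orange lines mark Pou4f2 at -0.117, Skor2 at 0.0508 and Pou4f3 at 0.261, the first below its domain's lower edge and the others in the lower part of their domains; the few values beyond the axis are drawn in the end bins.

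Most G9a peaks of the windows lay outside Ezh2 peaks. Of the 25 wild-type G9a peaks, 9 overlapped a library 1 Ezh2 peak, against 2.54% over the genome, a contrast that the choice of the loci used. Of the same 25, 4 overlapped a library 0 peak and 3 a knockout Ezh2 peak, against 0.463% and 0.461% over the genome. The choice of the loci touches these contrasts too. The length shared by wild-type G9a and library 1 was 7459 bp of the 20580 bp under G9a peaks, from 0 bp at Pou4f1 to 4103 bp at Pou4f2. In the rescue, 12 of 29 peaks overlapped a library 1 peak, against 2.45% over the genome, and 6 overlapped a knockout Ezh2 peak, against 0.377%. Both contrasts are also touched by the choice.

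In each window a rescue G9a peak was called over the highest wild-type G9a peak. The highest wild-type G9a peak of each window overlapped a rescue peak at all 4 loci, with wild-type scores of 57.73, 186.21, 160.23 and 135.55 and rescue scores of 145.71, 219.19, 268.76 and 226.45 for Pou4f1, Pou4f2, Pou4f3 and Skor2. Within their own lists, the highest rescue peaks of the windows were in the top 0.914%, 0.704%, 0.468% and 0.665%, and the highest wild-type peaks in the top 22.8%, 4.08%, 5.21% and 6.89%, in the same order. The lists differ in length and in score scale, so these ranks do not show a gain. The count over 4 loci has no matching share for equally high peaks of the genome. Because 3 of the loci were chosen for high wild-type G9a scores, nothing is read from it. Of all 25 wild-type G9a peaks of the windows, 12 overlapped a rescue peak, against 31.9% over the genome. In the other direction, 13 of 29 rescue peaks overlapped a wild-type peak, against 27.2%. The genome shares are not matched for score or chromosome, so nothing is read from these contrasts either. A rescue G9a peak lay in 3 of the 4 domains, against 20.0% of the 2642 regions, and these were the 3 chosen for wild-type G9a, so nothing is read from this. No G9a library of unrescued knockout cells was analysed here, so the background of the G9a calls at these sites was not measured.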

How the data were processed

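ChIP-seq of Ezh2 and G9a in TT2 cells was analysed from 5 peak lists, 1 per library, grouped by sample titles; 3 input libraries were not analysed here. Bowtie 0.12.7, MACS 1.4 and build mm9 are named in the submitters' processing notes. Wild-type inputs were pooled as control, per the labels' design text; another control for the knockout or rescue list is not stated. The deposited score is the authors' MACS score, with no call threshold stated in the sources used. The knockout library's title was followed, since its source name omits the knockout.

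Members, windows and measures were chosen with earlier results of these data known. Autosomes 1 to 19 and both sex chromosomes were used, overlap meant at least 1 bp, and positions are 1-based on mm9. All 4 genes and each G9a peak in a domain are named, with the highest-scoring peak of each list outside it; other named peaks were chosen after their values were seen. Gene windows were not checked against an mm9 annotation, so transcription starts were not placed and the POU and Ski family counts were not run. Interval code was tested on simulated data. Python 3.11.15, numpy 2.4.6 and matplotlib 3.10.9 were used. The alternatives were other overlap, merging and domain rules, score minima, equal list lengths and each wild-type Ezh2 library left out.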

Additional observations from a re-analysis of the deposited data

How the results depend on the processing

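The count of 3 domains with a knockout peak stayed at 3 or 4 under the 10 alternatives; it was 4 when a gap of up to 1 kb counted, when Ezh2 peaks up to 1 kb apart were merged, without library 1, and when any region of both wild-type libraries in the window could serve. The merged Pou4f1 domain, from 104856127 to 104868807, then held 630 bp of knockout peaks against 4392 bp of library 0. The highest G9a peak of a domain overlapped a knockout peak at 1 locus in the main setting, at 0 when the overlap had to cover the greater part of the shorter peak, and at 2 when any region of the window could serve. Leaving out each wild-type Ezh2 library gave 1 to 3 domains with wild-type G9a and a median knockout cover of 35.1% to 88.2%. The low count and the high cover came without library 1, whose wide peaks set the edges. Library 0 then covered a median of 99.5%. The place of the G9a peak also rested on the edges: within the span of library 0 peaks it was -0.677 at Pou4f2 and -0.544 at Skor2, outside that span, and with peaks merged within 1 kb it was 0.509 at Pou4f2. Raising the Ezh2 lists to a shared minimum of 43.03 and the use of any region of the window were chosen after seeing the data. No paired analysis was possible because the knockout and each G9a group had 1 library. Depth is unknown, so a site without a call is not shown to be without the protein.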
